A study of Monodelphis domestica with 2 samples.

Results

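The L6CT neurons of opossum primary visual cortex (V1), the corticothalamic neurons of layer 6, are described here from 3621 nuclei, 1673 of animal 1 and 1948 of animal 2. They were chosen as the nuclei to which the deposited annotation gave the subclass L6CT, and 8 further nuclei whose type was L5NP were dropped. They were set against the 16521 other glutamatergic nuclei with a subclass, 7408 of animal 1 and 9113 of animal 2, within 32764 labelled nuclei of 36558 barcodes in all. The samples were V1 of 2 adult male gray short-tailed opossums (Monodelphis domestica, a marsupial), aged 1.5 years (animal 1) and 2 years (animal 2), with no treatment and no altered genotype named in the labels. V1 of both hemispheres was pooled within an animal and frozen, nuclei isolated from it were sorted for the DNA dye Draq5, and each suspension gave 2 libraries for single-nucleus RNA sequencing (1A and 1B, 2A and 2B). The 2 animals formed 1 group and were prepared by different experimenters, so animal, age and preparation cannot be told apart. Mouse nuclei were not analysed here.

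In mammals, corticothalamic neurons of layer 6 send axons to the thalamus and return cortical output to the nuclei that supply the cortex with sensory input. They release glutamate, and collaterals to the thalamic reticular nucleus and to layer 4 let them adjust the gain of visual responses. In rodents the transcription factors FOXP2, TBR1 and TLE4 and the synaptotagmin SYT6 are widely used to mark them, as is the neurotensin receptor NTSR1.

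The libraries held 55625042 to 69706055 UMIs, the molecular tags that count single RNA molecules. Pairs of libraries shared 13 to 26 labelled barcodes. The median L6CT nucleus had 8342 UMIs in animal 1 and 7237 in animal 2, and the median other glutamatergic nucleus 8056 and 8225. Scrublet, the authors' doublet caller, had marked 5.38% ± 0.0861 of L6CT nuclei and 1.98% ± 0.627 of other glutamatergic nuclei (mean ± SD over animals, n = 2), and these were kept. Counts were summed over the nuclei of an animal and given as CPM, each gene's count scaled to the same total of UMIs in every sum. The subclass had been drawn from clusters of the same counts, so L6CT against the rest is a description with no test. A gene was called higher or lower where its CPM, with 1 CPM added, differed at least 2-fold in the same direction in both animals.

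L6CT nuclei made up 18.4% of glutamatergic nuclei in animal 1 (1673 of 9085, exact Clopper-Pearson 95% interval 17.6 to 19.2%) and 17.6% in animal 2 (1948 of 11065, 16.9 to 18.3%). The mean was 18.0% ± 0.573 (SD, n = 2). The share ranged from 17.5% to 18.5% over the 4 libraries. Intervals of shares cover counting error only.

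The 4 defining markers were first checked against the label, and all 4 were called higher in L6CT. Of the 8408 genes with a mean of at least 10 CPM, 3.94% were called higher and 4.96% lower. FOXP2, a forkhead transcription factor, was at 1554 CPM in L6CT of animal 1 and 1540 CPM in animal 2, against 90.1 and 61.8 CPM in other glutamatergic nuclei, a log2 ratio of 4.36 ± 0.370. SYT6 was at 166 and 132 CPM against 8.06 and 6.47 CPM (log2 ratio 4.18 ± 0.0331). TBR1, a T-box factor of early-born deep-layer neurons, was at 175 and 171 CPM against 69.4 and 66.5 CPM. FOXP2, SYT6 and TBR1 were highest in L6CT of all 8 glutamatergic subclasses in both animals. TLE4, a corepressor of the Groucho family, was at 467 and 513 CPM against 83.3 and 71.5 CPM, and 2 other subclasses were above L6CT for it.

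The near-projecting neurons of layer 5 (L5NP) and the neurons of layer 6b (L6b) carried part of this marker set. FOXP2 was at 802 and 720 CPM in L5NP, and at 105 and 117 CPM in L6b. TLE4 was at 728 and 630 CPM in L5NP and at 586 and 651 CPM in L6b, above L6CT in both animals. SYT6 was at 84.9 and 93.9 CPM in L5NP and at 54.5 and 51.6 CPM in L6b. L6b held 109 nuclei, 56 of animal 1 and 53 of animal 2, so its levels rest on few nuclei. TLE4 alone thus did not single out L6CT.

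**Figure D1:**
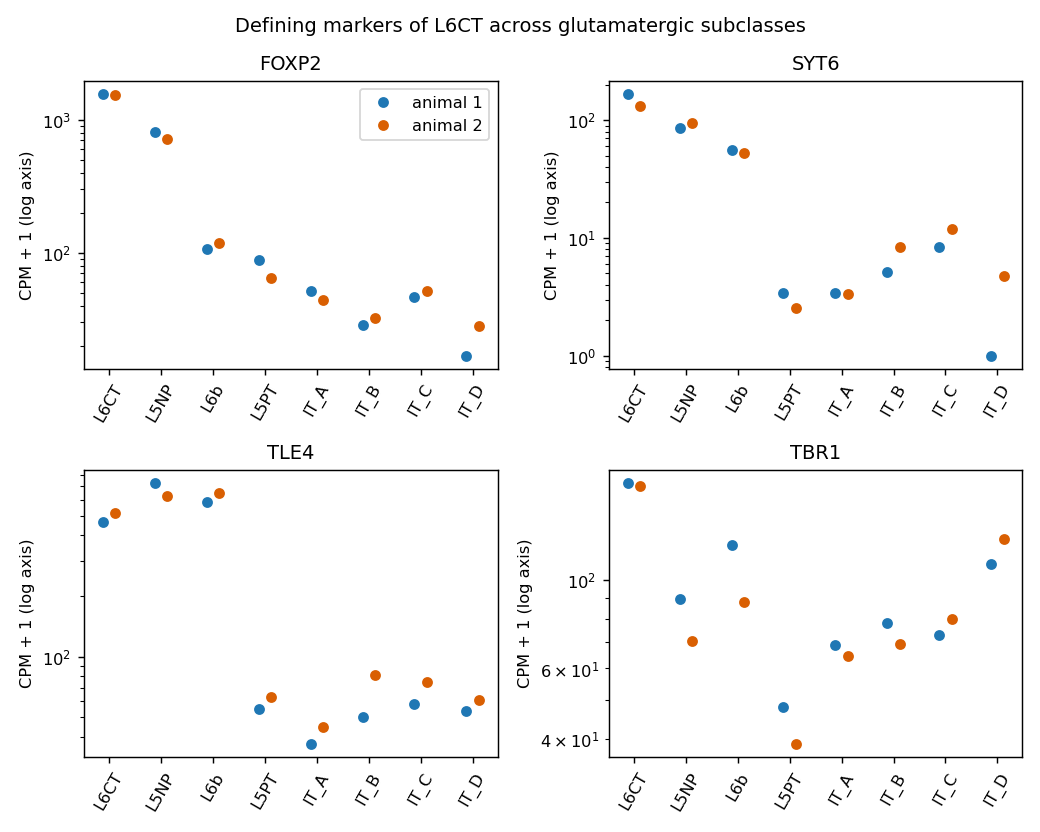
CPM of FOXP2, SYT6, TLE4 and TBR1 (vertical log axes, 1 CPM added) in the 8 glutamatergic subclasses, with 1 point per animal. FOXP2, SYT6 and TBR1 are highest in L6CT, while TLE4 is higher in L5NP and L6b than in L6CT.

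The markers were also counted nucleus by nucleus, with every nucleus thinned to 1000 UMIs to match depth. A FOXP2 UMI was found in 73.7% of L6CT nuclei, 45.8% of L5NP nuclei and 3.28% of oligodendrocytes, which served as the background. SYT6 was found in 13.6% of L6CT nuclei, 7.41% of L5NP nuclei, 6.45% of L6b nuclei and 0.188% of oligodendrocytes. TBR1 was found in 15.9% of L6CT nuclei, 11.9% of L6b nuclei, 11.3% of IT_D nuclei and 0.995% of oligodendrocytes. TLE4 was found in 39.2% of L6CT nuclei, 43.8% of L5NP nuclei, 46.1% of L6b nuclei and 16.2% of oligodendrocytes. The oligodendrocyte share for TLE4 was above that of the 4 intratelencephalic (IT) subclasses, at 3.45% to 6.59%. Median depth before thinning was 1916.5 ± 10.6 UMIs in oligodendrocytes and 7789.5 ± 781 UMIs in L6CT (mean ± SD of the animals' medians, n = 2).

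At 3000 UMIs per nucleus, all 4 markers were found in 10.1% of L6CT nuclei of animal 1 and 10.0% of animal 2, against 0.235% and 0.115% of other glutamatergic nuclei. No marker was found in 0.383% and 0.634% of L6CT nuclei, against 59.2% and 61.2% of the others. The 8 dropped nuclei, with 65780 UMIs in all, had FOXP2 at 1201 CPM and TLE4 at 471 CPM.

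Over all genes, 331 of 8408 were called higher in L6CT than in other glutamatergic nuclei, 209 of them with a symbol, and 417 were called lower, 269 with a symbol. The median log2 ratio of all 8408 genes was 0.06. The subclass IT_A held 9864 of the 16521 comparison nuclei. With the 7 other subclasses weighted equally, 189 genes were higher, 169 of them among the 331, and 348 lower, 278 of them among the 417. L6CT had the highest level of the 8 glutamatergic subclasses in both animals for 124 of the 331 genes (37.5%). For the rest, another subclass was higher in 1 or both animals. A ratio of at least 8-fold in both animals was reached by 37 genes. Without the nuclei called doublets, 352 genes were higher and 440 lower. The balance moved with the filter, to 166 higher and 162 lower at a mean of at least 50 CPM and 479 and 741 at 2 CPM.

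Beside the markers, the named genes with large ratios included 3 receptors. GRM8, a presynaptic metabotropic glutamate receptor, was at 290 and 317 CPM in L6CT against 14.02 and 15.2 CPM in other glutamatergic nuclei (log2 ratio 4.28 ± 0.0106). KIT, the receptor tyrosine kinase for stem cell factor, was at 107 and 101 CPM against 4.68 and 3.73 CPM (log2 ratio 4.34 ± 0.130). NRP1, a coreceptor for class 3 semaphorins and VEGF, was at 558 and 507 CPM against 43.6 and 46.0 CPM. In each of these 3 genes, both animals lay close together in L6CT and far above the rest.

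The next genes were shared with deep-layer neighbours to different extents. TENM1, a teneurin that links cells across synapses, was at 783 and 707 CPM in L6CT and at 808 and 853 CPM in L6b. FSTL5, a secreted follistatin-like protein, was at 1171 and 973 CPM in L6CT but at 2039 and 2011 CPM in L6b. KCNIP1, an accessory subunit of A-type potassium channels, was at 292 and 285 CPM in L6CT and at 310 and 375 CPM in L5NP. PHLDB2 was at 44.7 and 38.7 CPM against 1.59 and 1.73 CPM in other glutamatergic nuclei. PLPP3, THSD4, ADAMTS6, ARHGEF26, STARD13 and LHFPL2 completed the 15 highest, with mean log2 ratios from 3.29 for STARD13 to 3.57 for PLPP3 and ARHGEF26. Some of these genes were higher in glia than in L6CT. FSTL5 was at 1940 and 2056 CPM, PLPP3 at 402 and 419 CPM, LHFPL2 at 163 and 95.1 CPM and ADAMTS6 at 263 and 312 CPM in astrocytes, and STARD13 was at 1823 and 1812 CPM in oligodendrocytes. The part of other cells in these levels was not tested.

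The genes with the lowest ratios included NTNG1, NTNG2 and BDNF. NTNG1 was at 22.1 and 12.8 CPM in L6CT against 257 and 154 CPM in other glutamatergic nuclei, and NTNG2 was at 3.56 and 9.17 CPM against 80.0 and 100.2 CPM. BDNF, brain-derived neurotrophic factor, was at 2.68 and 3.65 CPM against 39.2 and 66.4 CPM. SMAD3, which carries TGF-beta signals to the nucleus, was at 18.5 and 36.6 CPM against 321 and 399.9 CPM. AJAP1, a junction protein, was at 28.3 and 30.1 CPM against 425 and 378 CPM. L6CT ranked last of the 8 subclasses for it in both animals, with L5NP close at 33.2 and 38.7 CPM. IL1RAP, CHST9, NDST4, TRPM3 and MATN2 completed the 10 lowest, with mean log2 ratios from -3.61 for IL1RAP to -3.30 for MATN2. BDNF was at 2.69 and 2.83 CPM in L5NP and at 1.82 and 3.97 CPM in L6b, so its low level was shared by these deep-layer subclasses. SMAD3 was likewise low, at 22.4 and 27.8 CPM in L5NP and 1.82 and 13.9 CPM in L6b. In L6b NTNG1 was at 7.26 and 5.95 CPM and NTNG2 at 3.63 and 3.97 CPM. In L5NP NTNG1 and NTNG2 were above L6CT in both animals.

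**Figure D2:**
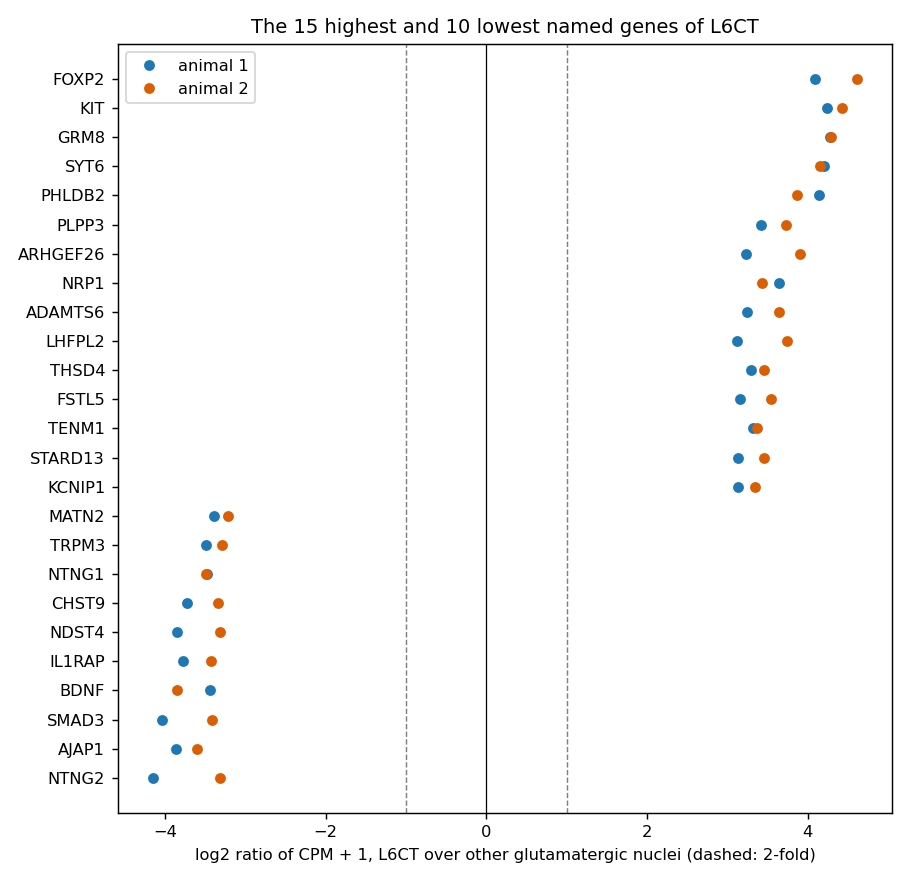
Log2 ratios of CPM (1 CPM added) of L6CT over other glutamatergic nuclei (horizontal axis) for the 15 highest and 10 lowest named genes, with 1 point per animal and dashed lines at 2-fold. FOXP2, KIT, GRM8 and SYT6 lead with mean log2 ratios of 4.18 to 4.36, and every gene shown lies on the same side in both animals.

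Genes that set L6CT apart from each neighbour were those at 20 CPM or more and at least 2-fold above every other glutamatergic subclass in both animals. They were 22 of 5872 genes (0.375%), and 7 had a symbol: KIT, GRM8, DDR2, PXDN, PROM1, NRP1 and SLC4A4. There were 36 genes with L6b left out, NFIA, FSTL5, ADAMTS6 and PLPP3 among them, and 31 to 35 from 1 animal alone. KIT was at 23.3 and 24.1 CPM in L5NP, the next subclass, and at 0.792 and 1.55 CPM in the pyramidal tract neurons of layer 5 (L5PT). GRM8 was at 84.0 and 87.7 CPM in L5NP. Outside the glutamatergic class, GRM8 was at 255 and 205 CPM in Pvalb interneurons, while KIT was at 2.05 and 1.43 CPM there. Of the 7 genes SLC4A4 alone was higher in Pvalb interneurons than in L6CT in both animals, at 268 and 310 CPM.

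DDR2, a receptor tyrosine kinase for fibrillar collagen, was at 88.7 and 47.3 CPM in L6CT, and at 17.6 and 15.1 CPM in L5NP. PXDN, a peroxidase of the extracellular matrix, was at 44.8 and 63.6 CPM against 14.95 and 18.9 CPM in L5NP. PROM1, the membrane glycoprotein prominin-1, was at 35.7 and 37.7 CPM against 12.3 and 6.60 CPM in L5NP. Within L6CT, PROM1 was at 81.1 and 96.3 CPM in the type L6CT_3 and at 11.3 to 19.3 CPM in the other 3 types, near L5NP. NRP1 was at 211 and 141 CPM in L5NP and at 131 and 182 CPM in L5PT. SLC4A4, a sodium bicarbonate cotransporter, was at 128 and 143 CPM against 63.4 and 52.4 CPM in L5NP. L5NP was the nearest neighbour for KIT, GRM8, PXDN and PROM1 in both animals. Outside the glutamatergic class 3 of the 7 genes were higher in astrocytes than in L6CT, SLC4A4 at 1934 and 1729 CPM, DDR2 at 157 and 111 CPM and PROM1 at 88.4 and 78.9 CPM. The part of other cells in these levels was not tested.

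**Figure D3:**
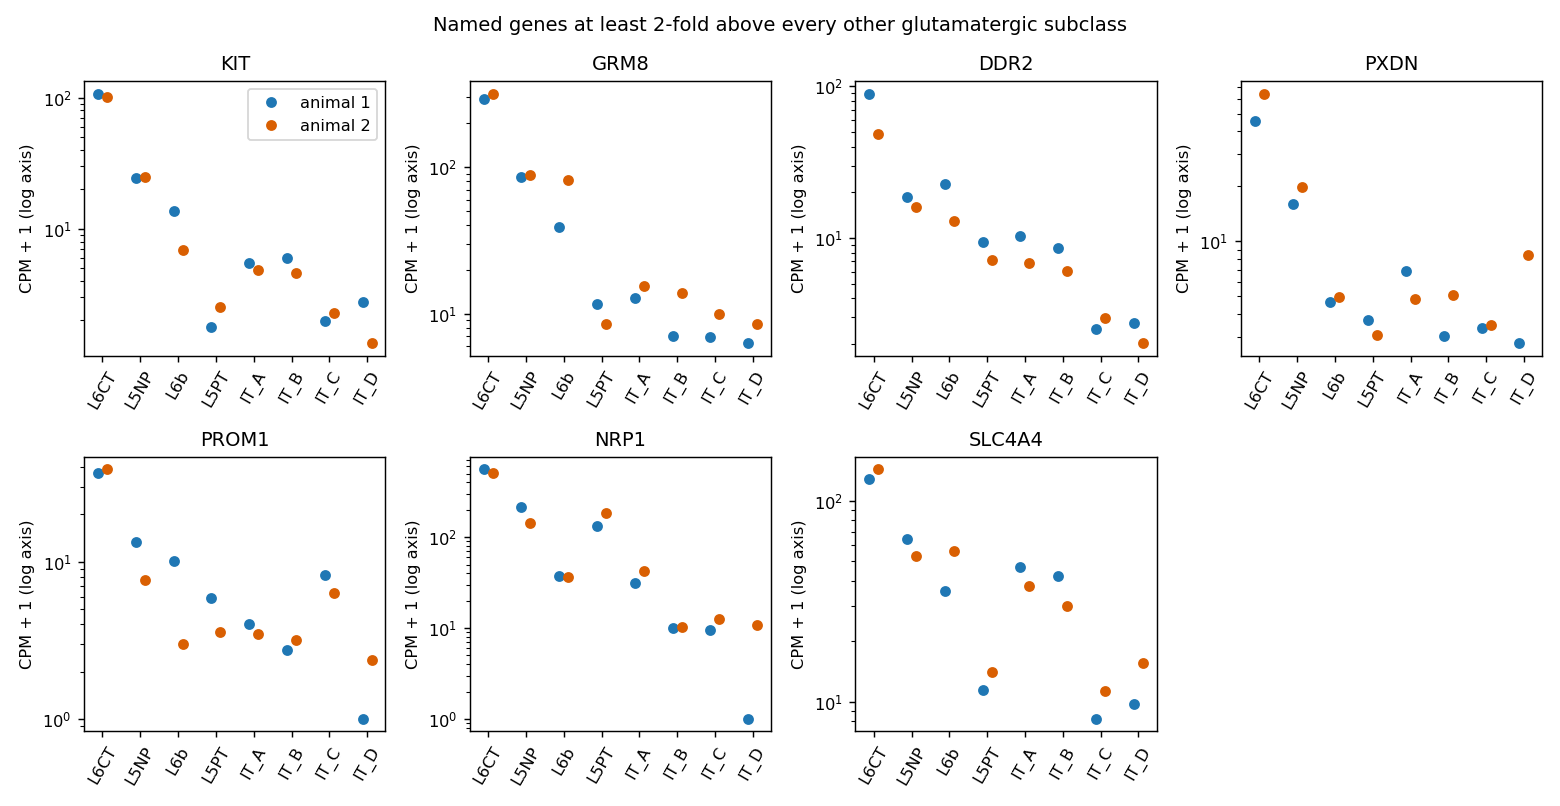
CPM (vertical log axes, 1 CPM added) of the 7 named genes at least 2-fold above every other glutamatergic subclass, by subclass and with 1 point per animal. L6CT holds the highest point of each animal in all 7 panels, and L5NP comes next for KIT, GRM8, PXDN and PROM1.

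Across genes, the L6CT profile was nearest to that of L5NP. Spearman's correlation across the 8408 genes, which are not independent replicates, was 0.937 and 0.935 with L5NP in animals 1 and 2. It was 0.905 and 0.900 with L6b and 0.892 and 0.896 with L5PT. The IT subclasses gave 0.830 to 0.907. By calls, 237 genes (2.82%) were higher and 204 (2.43%) lower in L6CT than in L5NP, against 382 (4.54%) and 192 (2.28%) for L6b, 411 (4.89%) and 333 (3.96%) for L5PT, 471 (5.6%) and 445 (5.29%) for IT_A, 507 (6.03%) and 417 (4.96%) for IT_B, 364 (4.33%) and 320 (3.81%) for IT_C, and 599 (7.12%) and 345 (4.1%) for IT_D. These sums differ in depth, from 504200 UMIs in L6b of animal 2 to 53793396 in IT_A of animal 2.

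Genes were then read by role, from 29 lists of which some share members. In all, 270 listed genes passed the level filter, and 45 of them were called higher and 51 lower, beside the 3.94% and 4.96% of all genes. The lists were chosen with earlier results of these data known. Of 19 genes with a symbol from a list of corticothalamic genes of mouse, 13 passed, 5 were higher and 4 lower, with a median log2 ratio of -0.25 against 0.06 over all genes. The higher members were SEMA3E, NXPH2, GRIK3, ZFPM2 and LMO3, and the lower ones were BRINP3, WLS, COL5A1 and CRYM. NTSR1 was at 56.7 and 68.8 CPM in L6CT against 84.9 and 94.1 CPM in other glutamatergic nuclei and was not called. NXPH2, a neurexophilin, was at 161 and 126 CPM in L6CT but at 598 and 716 CPM in L5NP and at 924 and 964 CPM in L6b. Against a mean that weighted the 7 other subclasses equally, the log2 ratio of NXPH2 was -0.85, short of a call.

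Transcription factors of projection neurons, a list that holds the defining markers FOXP2, TLE4 and TBR1, came next. Over all genes 3.94% were higher and 4.96% lower. Of 33 that passed, 10 were higher (TBR1, FOXP2, TLE4, SOX5, FEZF2, BCL11B, NFIA, ZFPM2, SATB1 and LMO3) and 3 lower (CUX1, CUX2 and RORB), with a median log2 ratio of 0.35. NFIA, a nuclear factor I protein, was at 2066 and 1802 CPM in L6CT, at 2003 and 1696 CPM in L6b and at 530 and 555 CPM in L5NP. LMO3, a LIM-only cofactor, was at 765 and 666 CPM in L6CT and at 717 and 585 CPM in L6b. BCL11B (CTIP2) was at 1121 and 1045 CPM in L6CT, 1209 and 1137 CPM in L5NP and 1044 and 1144 CPM in L5PT, and 1135 and 887 CPM in L6b, but 59.8 and 117 CPM in IT_D. FEZF2, which directs subcortical projection fate, was at 24.8 and 26.7 CPM in L6CT. It was higher in both animals in L5NP (41.0 and 53.3 CPM), in L5PT (35.9 and 32.7 CPM) and in the IT subclass IT_C (26.6 and 29.2 CPM). RORB, a nuclear receptor of layer 4, was at 49.3 and 54.8 CPM in L6CT against 397 and 348 CPM in other glutamatergic nuclei, and CUX2, an upper-layer factor, was at 43.1 and 60.5 CPM against 258 and 401 CPM.

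Receptors for glutamate and GABA were read beside the 3.94% higher and 4.96% lower of all genes. Of 12 ionotropic glutamate receptor genes, GRIK3 (kainate receptor) was higher, at 1045 and 882 CPM against 304 and 203 CPM. GRIK3 was at 1235 and 1228 CPM in L5NP, 1200 and 1192 CPM in L6b and 912 and 724 CPM in IT_C. GRIA4 (AMPA receptor) was lower, at 109 and 116 CPM against 893 and 959.9 CPM. GRIA4 was lower still in L5NP (68.5 and 90.6 CPM) and in L6b (36.3 and 41.7 CPM). Of 4 metabotropic receptor genes, GRM8 and GRM4 were higher, and GRM4 was at 274 and 223 CPM against 136 and 97.6 CPM, with 307 and 325 CPM in L5PT. Of 9 GABA receptor genes, GABRA5, whose subunit forms extrasynaptic receptors, was higher at 428 and 371 CPM against 145 and 118 CPM. GABRA5 was at 448 and 611 CPM in L6b and, near L6CT, at 429 and 356 CPM in IT_C. The other 8 GABA receptor genes were not called.

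Receptors for modulators split in both directions, with 5 of 19 higher and 3 lower, beside 3.94% and 4.96% of all genes. HCRTR2, an orexin receptor, was at 422 and 476 CPM in L6CT against 108 and 110.3 CPM in other glutamatergic nuclei, and at 530 and 704 CPM in L6b. CHRNA4, a nicotinic receptor subunit, was at 105 and 72.3 CPM against 14.1 and 10.0 CPM, but at 231 and 208 CPM in L6b. HTR4 was at 32.5 and 37.1 CPM against 9.51 and 10.2 CPM, DRD1 at 28.3 and 23.1 CPM against 9.66 and 5.79 CPM, and TACR1 at 26.3 and 19.7 CPM against 3.66 and 7.35 CPM. HTR4 was at 38.7 and 55.6 CPM in IT_D and DRD1 at 45.2 and 36.8 CPM in L5NP, above L6CT in both animals. The lower genes were the serotonin receptors HTR2A and HTR7 and the adrenergic receptor ADRA1D. HTR7 was at 11.7 and 13.2 CPM against 91.2 and 76.9 CPM. TACR1 was at 4.19 CPM in L5NP of animal 1 and at 30.7 CPM in animal 2, so its rank differed between the animals.

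Ion channels were read beside the 3.94% higher and 4.96% lower of all genes, which also hold more lower than higher calls. Of 31 potassium channel genes 3 were higher (KCNIP1, KCNK9 and KCNMB4) and 4 lower (KCNH5, KCNH7, KCNK10 and KCNQ5). KCNQ5, an M-current channel, was at 328 and 311 CPM against 1044 and 893 CPM. It was lower still in L5NP (119 and 97.7 CPM) and in L6b (30.9 and 39.7 CPM). The leak channel KCNK9 was at 725 and 873 CPM against 289 and 303 CPM, and at 824 and 728 CPM in L6b. Of 21 sodium, calcium, HCN and TRP channel genes CACNA1E alone was higher, at 2990 and 3144 CPM against 1061 and 1203 CPM. L6b was near L6CT for CACNA1E, at 3009 and 2630 CPM. The genes CACNA1H, TRPC4, TRPC6 and TRPM3 were lower. CACNA1E encodes an R-type calcium channel and CACNA1H a T-type one.

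Axon guidance genes gave 7 higher and 8 lower of 35, beside 3.94% and 4.96% of all genes. Their median log2 ratio was -0.46, against 0.06 over all genes. The higher genes were the ligands SEMA3C, SEMA3E and SEMA5B and the receptors NRP1, DCC, EPHA5 and EPHB6. EPHB6 was at 40.8 and 49.6 CPM in L6CT against 15.9 and 19.8 CPM, and L6CT ranked first for it in both animals. DCC, a netrin receptor, was at 515 and 410.2 CPM in L6CT but at 1181 and 1062 CPM in L5NP. SEMA3C was at 35.2 and 28.2 CPM in L6CT and at 218 and 278 CPM in L6b, and its log2 ratio to the equally weighted mean of the other subclasses was -0.70, short of a call. Among the lower genes, the netrin receptor UNC5C was at 57.8 and 68.7 CPM against 509 and 537 CPM, and the ephrin receptor EPHA4 was at 58.6 and 79.3 CPM against 285 and 351 CPM. L6CT ranked last of 8 for UNC5C and EPHA4 in both animals, though EPHA4 was close in L5NP, at 65.2 and 83.0 CPM.

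Adhesion genes were called in both directions, beside 3.94% higher and 4.96% lower of all genes. Of 18 cadherins and protocadherins only PCDH17 was higher, and CDH7, CDH8, CDH9, CDH12, CDH20, CDH22 and PCDH19 were lower. The median log2 ratio of the 18 was nevertheless 0.27, against 0.06 over all genes. CDH20 was at 15.2 and 33.4 CPM against 185 and 283 CPM. Of 30 synaptic organizers 7 were higher and 6 lower. CNTNAP4, a neurexin-like protein, was at 995 and 906 CPM against 115 and 66.1 CPM, and L6CT ranked first for it in both animals. CNTN3, a contactin, was at 149 and 154 CPM against 753 and 842 CPM and ranked last in both.

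Genes of calcium binding, release and secretion completed the lists, beside 3.94% higher and 4.96% lower of all genes. NCALD (neurocalcin) was at 129 and 114 CPM against 39.9 and 35.8 CPM and CALB1 (calbindin) at 3.56 and 3.85 CPM against 37.1 and 36.5 CPM, among 2 higher and 4 lower of 10 genes. Of 17 release and vesicle genes RAB3C alone was called, at 229 and 223 CPM against 856 and 829 CPM. Of 12 secreted factors FGF10, IGF1 and TGFB2 were higher and BDNF, PDGFD and CCK lower. FGF10 was at 79.0 and 80.1 CPM against 11.5 and 13.8 CPM, and CCK at 13.2 and 24.0 CPM against 70.8 and 72.8 CPM. In L6b FGF10 was at 58.1 and 71.4 CPM and CCK at 10.9 and 9.92 CPM.

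Markers of other cells were read in the same sums. The 8 GABAergic markers with a symbol summed to 18.6 and 26.2 CPM in L6CT and to 20.6 and 20.5 CPM in other glutamatergic nuclei. The 4 oligodendrocyte markers summed to 71.4 and 74.4 CPM against 99.4 and 96.4 CPM. The 6 astrocyte markers summed to 477 and 566 CPM against 232 and 282 CPM, of which SLC1A2, a glutamate transporter, gave 454 and 532 CPM. SLC1A2 was above L6CT in both animals in L5NP (543 and 683 CPM), L6b (547 and 714 CPM) and IT_C (484 and 665 CPM). The other astrocyte markers were near the rest, with AQP4 at 1.54 and 2.31 CPM against 1.79 and 1.44 CPM and GFAP at 0.671 and 1.03 CPM against 1.00 and 0.734 CPM. Microglial markers summed to 3.15 and 3.91 CPM. The part of other cells in the level of SLC1A2 was not tested.

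The annotation divided L6CT into 4 types, and their shares differed between the animals. L6CT_1 held 770 nuclei of animal 1 and 445 of animal 2 (46.0% and 22.8% of L6CT), and L6CT_2 held 193 and 786 (11.5% and 40.3%). L6CT_3 held 525 and 409 nuclei (31.4% and 21.0%), and L6CT_4 held 185 and 308 (11.1% and 15.8%). The 2 libraries of an animal gave close shares, with L6CT_2 at 10.8% and 12.3% in libraries 1A and 1B and at 38.1% and 42.0% in 2A and 2B. L6CT_1 was the larger of these 2 types in animal 1 and L6CT_2 in animal 2, while all types together made up 18.4% and 17.6% of glutamatergic nuclei.

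The types also differed in depth and doublet calls. The median nucleus of L6CT_2 had 2889 UMIs in animal 1 and 4662.5 in animal 2, against 9021 and 9549 in L6CT_1, 8915 and 9535 in L6CT_3 and 6926 and 6484 in L6CT_4. Scrublet had marked 21.1% ± 9.16 of L6CT_4, 6.74% ± 0.00513 of L6CT_2, 1.44% ± 0.655 of L6CT_3 and 1.42% ± 0.742 of L6CT_1 (mean ± SD, n = 2). The part of depth and doublets in the differences between types was not tested.

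**Figure D4:**
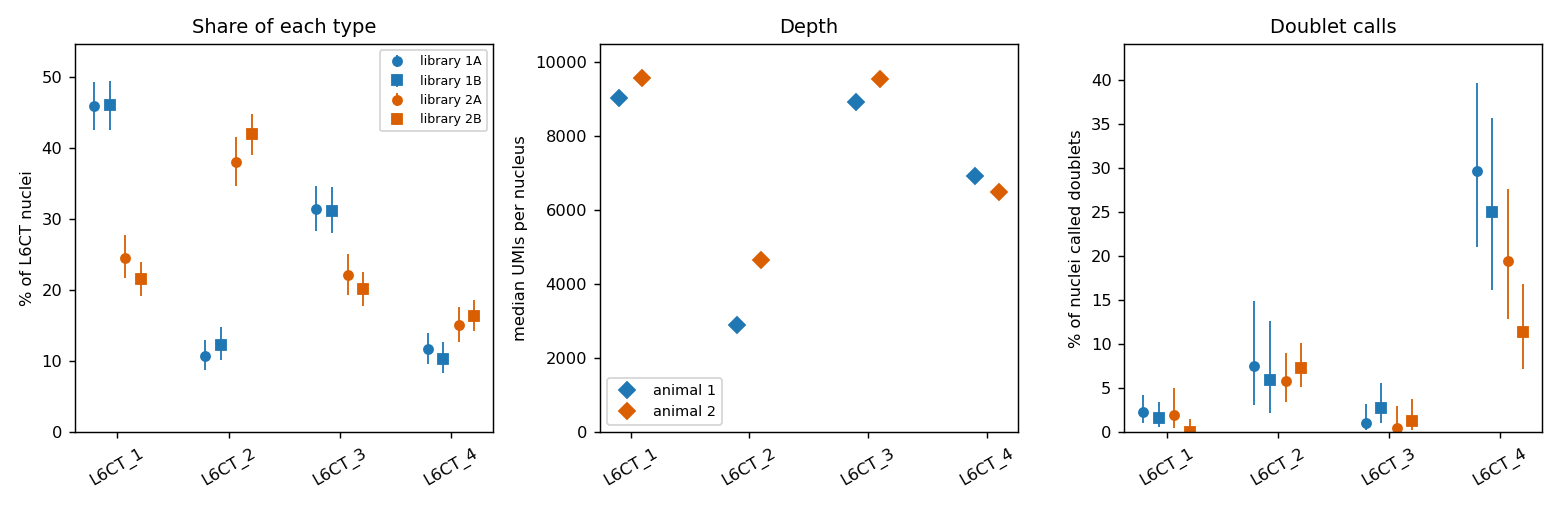
The 4 L6CT types by share of L6CT nuclei in each library (left, exact 95% binomial intervals), median UMIs per nucleus in each animal (middle) and percent of nuclei called doublets in each library (right, exact 95% intervals). L6CT_2 is the shallowest type and is more frequent in animal 2, and L6CT_4 has the most doublet calls.

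To match depth, every nucleus was thinned to 3000 UMIs, which left out 318 L6CT nuclei, 299 of them L6CT_2. The thinned nuclei then had alike median gene numbers, from 1643 to 1725 over types and animals. A UMI stood for 0.433 to 3.51 CPM in these sums, the coarsest being the 95 nuclei of L6CT_2 in animal 1. Of 6178 genes with a mean of at least 20 CPM, those at least 2-fold above the other types in both animals numbered 8 in L6CT_1 (0.129%), 26 in L6CT_2 (0.421%), 51 in L6CT_3 (0.826%) and 83 in L6CT_4 (1.34%). These counts moved with the settings, to 63 in L6CT_2 at 1500 UMIs, to 2, 10, 23 and 24 in L6CT_1 to L6CT_4 at a mean of at least 50 CPM, to 19 in L6CT_1 without L6CT_2 and to 84 in L6CT_3 without L6CT_4. From animal 2 alone they were 14, 48, 71 and 215, and from animal 1 alone 32, 199, 88 and 120. Those at least 2-fold below numbered 31 (0.502%), 150 (2.43%), 50 (0.809%) and 17 (0.275%). The 4 defining markers were called in no type. FOXP2 was at 1654 and 1860 CPM in L6CT_1, 1067 and 1148 CPM in L6CT_2, 1672 and 1684 CPM in L6CT_3 and 1214 and 1501 CPM in L6CT_4.

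Among genes with a symbol, L6CT_3 had the most calls, 35 higher and 33 lower. Over all genes L6CT_4 had the most higher calls (83) and L6CT_2 the most lower ones (150). PROM1 was at 85.9 and 117 CPM in L6CT_3 against 9.97 to 21.3 CPM in the other types, near the 12.3 and 6.60 CPM of L5NP. PLCXD3, a phospholipase domain protein, was at 314 and 180.1 CPM against 22.4 to 80.7 CPM. The phospholipase PLCH2 was at 104 and 68.5 CPM against 3.00 to 56.1 CPM, and the secreted VWC2 at 114 and 60.3 CPM against 2.60 to 42.1 CPM. SMAD1, a BMP signal carrier, was at 80.2 and 34.2 CPM against 6.73 to 56.1 CPM. The IT-associated factors RORB and ETV1 were higher in L6CT_3, RORB at 76.97 and 86.4 CPM against 19.5 to 68.5 CPM and ETV1 at 106 and 78.2 CPM against 8.98 to 87.7 CPM. The highest of the other types was L6CT_2 of animal 1 for PLCXD3, PLCH2, VWC2, SMAD1 and ETV1, and for SMAD1 and ETV1 it lay above L6CT_3 of animal 2. ZFPM2 was lower in L6CT_3, at 523 and 707 CPM against 1030 to 1676 CPM in the other types, as was CUX2, at 17.2 and 20.4 CPM. The guidance ligand SLIT3 was at 62.3 and 83.9 CPM in L6CT_3 against 186 to 429 CPM in the others, and NELL1 was at 71.2 and 64.4 CPM against 229 to 411 CPM. EFEMP1, FAT4, ZBTB7C and LGR6 were the other 4 lowest named genes of this type.

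L6CT_1 had the opposite pattern for several of these genes. PDGFC, a platelet-derived growth factor, was at 44.6 and 54.7 CPM in L6CT_1 and at 13.4 and 3.26 CPM in L6CT_3, and EFEMP1 was at 65.9 and 40.4 CPM against 5.09 and 0 CPM. EFEMP1 in L6CT_3 of animal 2 had no UMI, for which the limit is 3 counts. UTRN was at 81.9 and 112 CPM and ZMAT4 at 604 and 325 CPM in L6CT_1. By ratio to the other types together, PLCH2, VWC2, GALNT14, INPP4B and ETV1 were the 5 lowest named genes of L6CT_1, with ETV1 at 14.7 and 11.2 CPM there and at 20.5 and 8.98 CPM in L6CT_4. KCNAB1, a potassium channel subunit, was at 19.5 and 19.5 CPM in L6CT_1 and at 229.6 and 70.1 CPM in L6CT_3, where the animals differed.

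**Figure D5:**
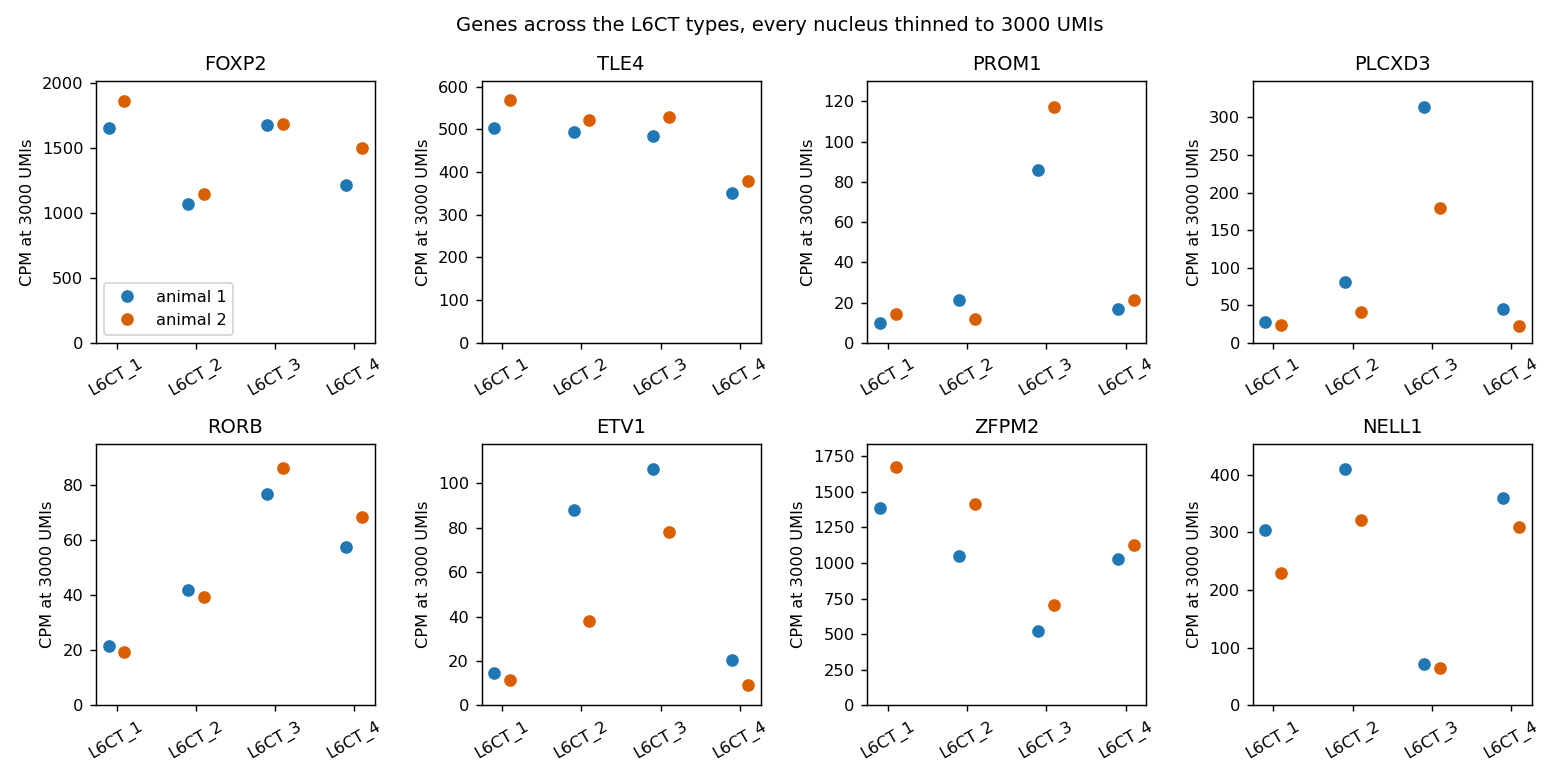
CPM of 8 genes in the 4 L6CT types with every nucleus thinned to 3000 UMIs, with 1 point per animal and vertical axes from 0. FOXP2 and TLE4 are present in all types, while PROM1, PLCXD3, RORB and ETV1 are high and ZFPM2 and NELL1 low in L6CT_3. For ETV1, L6CT_2 of animal 1 lies above L6CT_3 of animal 2.

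In L6CT_2 the splicing factor SRSF1 was at 182 and 160.1 CPM against 66.3 and 68.9 CPM in the other types together, the Golgi protein GOLGB1 at 316 and 290 CPM against 134 and 127 CPM, and the linker PLEC at 94.7 and 84.3 CPM against 32.4 and 35.6 CPM. MATCAP2 and SKIC2 were the other 2 highest, and BCO1, PRL, MPPE1, TIMP3 and FANCC the 5 lowest. In L6CT_4 the chaperone HSPA8 was at 59.6 and 49.4 CPM against 24.0 and 19.7 CPM, and the phosphatase PTPRK at 59.6 and 79.7 CPM against 17.8 and 30.1 CPM. ELK3, FKBP3 and TMEM204 were the other 3 highest, and COL12A1, SEMA3C, PLCXD3, RFTN1 and ETV1 the 5 lowest by ratio to the other types together, L6CT_3 included. PLCXD3 was at 44.7 and 22.4 CPM in L6CT_4, beside 28.2 and 24.0 CPM in L6CT_1, and RFTN1 was at 26.1 and 22.4 CPM, beside 29.0 and 22.5 CPM in L6CT_1 and 184 and 138 CPM in L6CT_3. The GABAergic markers summed to 37.2 and 40.4 CPM in L6CT_4 and to 13.4 to 26.2 CPM in the other types, and the markers of oligodendrocyte precursors to 18.6 and 12.3 CPM against 0 to 2.28 CPM. The part of other cells in the levels of L6CT_4 was not tested.

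Last, L6CT was compared between the animals, 1 against 1 and with no test. Libraries of the animals did not overlap for 4946 of 8292 genes (59.6%), and 49 of these were at least 2-fold apart, 9 higher in animal 2 (0.109%) and 40 higher in animal 1 (0.482%). Of the 49, 46 had the same direction in other glutamatergic nuclei, where 28 were also at least 2-fold apart, and 46 had it in all 4 types. SYK, a tyrosine kinase, was at 33.8 and 34.9 CPM in libraries 1A and 1B and at 91.2 and 93.6 CPM in 2A and 2B. COL5A1 was at 11.9 and 15.7 CPM in animal 1 and at 36.1 and 30.02 CPM in animal 2, and CDC42SE2 at 41.6 and 42.5 CPM and at 94.6 and 90.5 CPM. PLSCR5 was at 20.1 and 15.8 CPM in animal 1 and at 3.53 and 5.83 CPM in animal 2, DPEP1 at 17.2 and 15.8 CPM and at 5.16 and 5.23 CPM. In other glutamatergic nuclei animal 2 was 1.55-fold higher for SYK, 1.40-fold for COL5A1 and 1.74-fold for CDC42SE2. There DPEP1 was 2.76-fold higher in animal 1, and PLSCR5 was at 0.358 and 0.168 CPM. Type shares also differed between animals 1 and 2, L6CT_1 at 46.0% and 22.8% and L6CT_2 at 11.5% and 40.3% of L6CT. NECAB1, a calcium-binding protein, was at 36.3 and 27.9 CPM in animal 1 and at 14.5 and 11.4 CPM in animal 2, with 24.0 and 24.5 CPM in other glutamatergic nuclei. By type NECAB1 went from 78.6 CPM in animal 1 to 26.8 CPM in animal 2 in L6CT_3 but from 5.74 to 13.95 CPM in L6CT_4, so it was an exception to the direction shared by all types.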

How the data were processed

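Nuclei from V1 of 2 opossums (4 libraries) were measured. Alignment was done by the authors in Cell Ranger against ASM229v1, counting intronic reads, after they had lengthened the 3′ ends of Ensembl gene models. The deposited matrices hold raw UMI counts for each gene and barcode. The submitters' processing notes give Cell Ranger 6.1.1 and the matrix headers 7.1.0. The authors also deposited class, subclass and type labels and doublet calls, here used as deposited, with a Scrublet score (a fraction from 0 to 1), which was not used. Extending 3′ ends and counting introns can move the level of single genes, and levels were not compared between genes. Of 30800 genes, 11590 (37.6%) had a symbol, taken from the files alone.

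Counts were summed per animal over both libraries, which share a suspension and are technical replicates. Ratios used CPM with 1 CPM added, among genes with a mean of at least 10 CPM over the 4 sums (20 CPM for the types), and a call needed 2-fold in both animals. Types were compared after thinning without replacement with fixed seeds. Named genes were the list members, the 15 highest and 10 lowest called genes with a symbol ranked by the smaller of the animals' ratios, the 10 highest above every other subclass (7 existed), the 5 highest per type and the 3 largest each way between animals. The 5 lowest per type were named by the same ranking, which was added after the values were seen. The members and lists were chosen with earlier results of these data known. Computations used Python 3.11.15, numpy 2.4.6, pandas 2.3.3, scipy 1.17.1 and matplotlib 3.10.9, with R 4.3.3, edgeR 4.0.16 and DESeq2 1.42.0 for scaling factors only. The call rule and the thinning were tested on simulated data. The criterion for that test was reset after its first version failed, with the call rule unchanged. Alternatives covered scaling, the CPM added, the filter, weighting, doublets, depth and leaving out each animal.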

Additional observations from a re-analysis of the deposited data

How the results depend on the processing

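The ratios were paired, as each was taken within an animal, and no test was run. Of 1265 alternative values for 115 named genes, 963 stayed within the spread between animals and 2 changed sign. The 1265 and the 963 include the values from 1 animal alone. Those lie within that spread by construction, so they show nothing about stability. Leaving out an animal aside, 40 of 64 other values stayed within that spread or, for counts, within 1.5-fold. For the sign changes, against an equally weighted mean of the 7 other subclasses the log2 ratios were -0.85 for NXPH2 and -0.70 for SEMA3C. That mean left 189 genes higher in L6CT, 169 of them among the 331. A mean of at least 2 CPM gave 741 lower, and at least 50 CPM gave 166 higher and 162 lower. Leaving out an animal gave 374 to 419 higher and 453 to 469 lower. Above every other subclass there were 47 genes at 1.5-fold, 11 at 3-fold, 36 with L6b left out, and 31 to 35 without an animal. The L6CT share was 14.8% of all neurons with a subclass, and 17.6 to 18.4% without an animal. Shares of L6CT nuclei with a UMI at 3000 UMIs and without thinning were 95.8% and 97.3% for FOXP2, 34.0% and 59.5% for SYT6, 73.3% and 89.8% for TLE4, and 40.1% and 68.8% for TBR1. For the types, at least 50 CPM gave 2, 10, 23 and 24 higher genes in L6CT_1 to L6CT_4, and thinning to 1500 UMIs gave 63 in L6CT_2. Without an animal the ranges were 14 to 32, 48 to 199, 71 to 88 and 120 to 215. In alternatives chosen after seeing the data, L6CT_3 had 84 without L6CT_4, and L6CT_1 had 19 without L6CT_2. Between animals, at least 50 CPM left 12 genes. A stricter filter let in fewer genes and a looser one more; for the weighting, the thinning and L6b the cause was not tested. Depth limits low genes most in L6CT_2 of animal 1, where a UMI stood for 3.51 CPM.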
